A study of Homo sapiens with 12 samples.

Results

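The H/ACA core proteins and their assembly factors were described here through 9 genes: the core proteins DKC1 (dyskerin), NHP2, NOP10 and GAR1, the assembly factor NAF1, and the R2TP complex of RUVBL1, RUVBL2, PIH1D1 and RPAP3. They were chosen by symbol from the 58288 genes listed in the tables, and all 9 were found. The study used HPB-ALL and KOPTK1, established human T-cell acute lymphoblastic leukemia (T-ALL) lines. In each line, cells were infected with pLKO.1 lentivirus carrying an shRNA against SHQ1 or, as the control, an shRNA against GFP, and were grown with 2 μg/mL puromycin for 48 h by the labels. Total RNA was depleted of rRNA and sequenced, giving 3 samples per shRNA and line, 12 in all. All cells therefore carried a lentivirus and had been under puromycin, and no uninfected cells were measured.

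The columns of the tables are headed by the numbers 1 to 12, which match no label of a sample. The labels tie each table to a line, so libraries 1 to 6 were taken as KOPTK1 and libraries 7 to 12 as HPB-ALL, and no library was assigned to an shRNA. The effect of SHQ1 shRNA on the 9 genes was therefore not tested. The comparisons below are between lines, each line holding libraries of both shRNAs, and between genes within a library. Nothing in the labels says that the libraries came from separate cultures, so p-values measure the spread between these libraries only, and that spread includes any effect of the shRNA.

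H/ACA ribonucleoproteins are built from a guide RNA and a shared set of core proteins, and they convert chosen uridines of ribosomal and spliceosomal RNA to pseudouridine. Dyskerin is the catalytic subunit, NOP10 and NHP2 bind with it, and GAR1 joins last, taking the place that NAF1 holds during assembly in the nucleus. SHQ1 binds newly made dyskerin before its assembly with RNA, and R2TP, in which RUVBL1 and RUVBL2 are the ATPases and PIH1D1 and RPAP3 the adaptors to clients and HSP90, acts in the release of SHQ1.

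Each gene was placed by the coordinates in the tables, which are those of GRCh38. DKC1 lies on chromosome X at 154762742 to 154777689 on the plus strand, GAR1 on chromosome 4 at 109815510 to 109824740 on the plus strand, and NAF1 on the same chromosome at 163110073 to 163166921 on the minus strand. RUVBL1 is on chromosome 3 at 128064785 to 128153914 (minus strand), and RUVBL2 and PIH1D1 are both on chromosome 19, at 48993448 to 49015995 (plus strand) and at 49446299 to 49453494 (minus strand). NHP2 (chromosome 5, 178149460 to 178153967), NOP10 (chromosome 15, 34341713 to 34343177) and RPAP3 (chromosome 12, 47661249 to 47706061) are on the minus strand. Their summed exon length ran from 554 bases in NOP10 to 4370 bases in RPAP3.

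The promoters of 4 genes are shown. DKC1 is the enzyme, and NOP10 is the only gene with a CACGTG in this window among the 7 found in the RefSeq table. RUVBL1 and RUVBL2 are the paired ATPases, of which RUVBL2 had the largest difference between the lines described below. Other genes with called differences are not shown. The motifs were sought after the data were seen, and no link between a promoter and a level was tested. Each sequence is the 250 bases before a RefSeq start site on GRCh38.p14, read 5′ to 3′ on the strand of the gene, with CACGTG and GGGCGG (on either strand) in capitals. The 4 windows are chrX:154762614-154762863 (plus strand) for DKC1, chr15:34343137-34343386 (minus strand) for NOP10, chr3:128153915-128154164 (minus strand) for RUVBL1 and chr19:48993198-48993447 (plus strand) for RUVBL2.
DKC1: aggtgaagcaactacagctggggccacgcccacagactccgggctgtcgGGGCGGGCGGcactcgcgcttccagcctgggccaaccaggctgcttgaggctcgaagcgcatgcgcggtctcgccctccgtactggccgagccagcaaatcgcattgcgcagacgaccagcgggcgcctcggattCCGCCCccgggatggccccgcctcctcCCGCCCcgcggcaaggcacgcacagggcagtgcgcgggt
NOP10: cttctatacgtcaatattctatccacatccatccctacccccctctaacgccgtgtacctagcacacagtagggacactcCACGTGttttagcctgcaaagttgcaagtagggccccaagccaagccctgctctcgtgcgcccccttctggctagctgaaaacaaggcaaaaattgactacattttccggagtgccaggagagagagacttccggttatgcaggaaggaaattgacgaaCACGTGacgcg
RUVBL1: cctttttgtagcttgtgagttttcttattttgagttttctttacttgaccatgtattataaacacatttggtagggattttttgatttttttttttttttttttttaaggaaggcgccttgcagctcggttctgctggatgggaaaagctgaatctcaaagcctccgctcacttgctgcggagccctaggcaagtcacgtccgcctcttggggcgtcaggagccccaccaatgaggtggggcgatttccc
RUVBL2: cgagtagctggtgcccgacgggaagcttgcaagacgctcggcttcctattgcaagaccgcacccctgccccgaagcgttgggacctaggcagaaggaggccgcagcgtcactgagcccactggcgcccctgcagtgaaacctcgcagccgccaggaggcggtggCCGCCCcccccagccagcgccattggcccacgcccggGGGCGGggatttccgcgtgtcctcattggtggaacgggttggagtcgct

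CACGTG, the palindrome known as the E-box, stood 170 and 11 bases before the start of NOP10, and 6.34% of 35116 promoters of this length held it. GGGCGG, the GC box, was found in 6 of the 10 windows of the 7 genes with a promoter in the RefSeq table, and in 42.6% of all promoters. These windows belonged to 5 genes (4 sites in DKC1, 5 in NHP2, 2 in the RUVBL2 window shown). RUVBL1 had none at either of its 2 start sites. The table held 10 windows for these 7 genes, with a GC content from 45.2% to 72.0% against a median of 58.0% over all promoters. NAF1 and PIH1D1 are named only.

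The libraries held 36792076 to 42842791 counts in HPB-ALL and 22884785 to 36098045 counts in KOPTK1, where libraries 4 to 6 (up to 25938761 counts) were shallower than libraries 1 to 3 (at least 33905452). Across 13130 genes, log2 levels of any pair of HPB-ALL libraries correlated with r from 0.981 to 0.991, whereas KOPTK1 libraries 1 to 3 correlated with libraries 4 to 6 with r from 0.940 to 0.951. Libraries 1 to 3 also lay closer to HPB-ALL (r from 0.874 to 0.921) than libraries 4 to 6 did (r from 0.764 to 0.813). All 7 T-lineage markers (CD3D, CD3E, CD3G, CD2, CD7, LCK and CD5) had a median of at least 10 RPKM in both lines, with summed levels of 898 to 955 RPKM in HPB-ALL and 905 to 948 RPKM in KOPTK1. Of 8 markers of other lineages (MS4A1, CD79A, CD14, LYZ, MPO, HBB, KRT18 and COL1A1), 7 had a median under 2 RPKM in both lines. The exception was CD79A, at 40.0 to 46.5 RPKM in HPB-ALL, 24.0 to 24.6 RPKM in KOPTK1 libraries 1 to 3 and 5.91 to 7.17 RPKM in libraries 4 to 6. TLX3, taken as a marker of HPB-ALL, was at or near 0 in both lines (highest library 0.29 RPKM, in KOPTK1), so it did not mark HPB-ALL in these libraries. LMO2, taken as a marker of KOPTK1, was low there, at 0.96 to 2.51 RPKM, and at 0.078 to 0.26 RPKM in HPB-ALL. The names of the lines rest on the labels, and the identity of the cells was not tested. In CD79A, CD2, CD3G, LCK and LMO2, KOPTK1 libraries 1 to 3 lay between HPB-ALL and libraries 4 to 6 without overlap. CD3D, CD3E, CD7 and CD5 did not separate in this way. Pooled KOPTK1 values, and differences from them, join both sets. Whether the 2 sets of KOPTK1 libraries differ in shRNA, cells or handling was not tested. The differences between the lines of the named genes are given with and without each set, which was decided once the data had been seen.

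SHQ1, the target of the shRNA, was expressed in every library. In HPB-ALL its level was 71.2, 72.3 and 71.1 RPKM in libraries 7, 8 and 9 and 47.4, 46.003 and 48.7 RPKM in libraries 10, 11 and 12, where RPKM is the read count scaled to exon length and library size. In KOPTK1 it was 45.6, 44.3 and 45.9 RPKM in libraries 1, 2 and 3 and 41.9, 41.8 and 39.5 RPKM in libraries 4, 5 and 6. SHQ1 thus ranged 1.57-fold over the HPB-ALL libraries, more than 97.5% of genes at 10 RPKM or more, and 1.16-fold over those of KOPTK1, and its HPB-ALL and KOPTK1 libraries did not overlap. These values were not used to name the shRNA of any library.

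All 9 genes were expressed well above the lower range of the transcriptome in both lines. The lowest count of any of them in any library was 679, for NOP10, and NAF1, the lowest by level, still exceeded 84.1% of the 38265 genes with a median above 0 in HPB-ALL and 84.2% of 38927 in KOPTK1. RUVBL2 exceeded 98.5% of genes in HPB-ALL and NHP2 98.4% in KOPTK1. The plot of levels by library shows the 9 genes in turn.

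**Figure D1:**
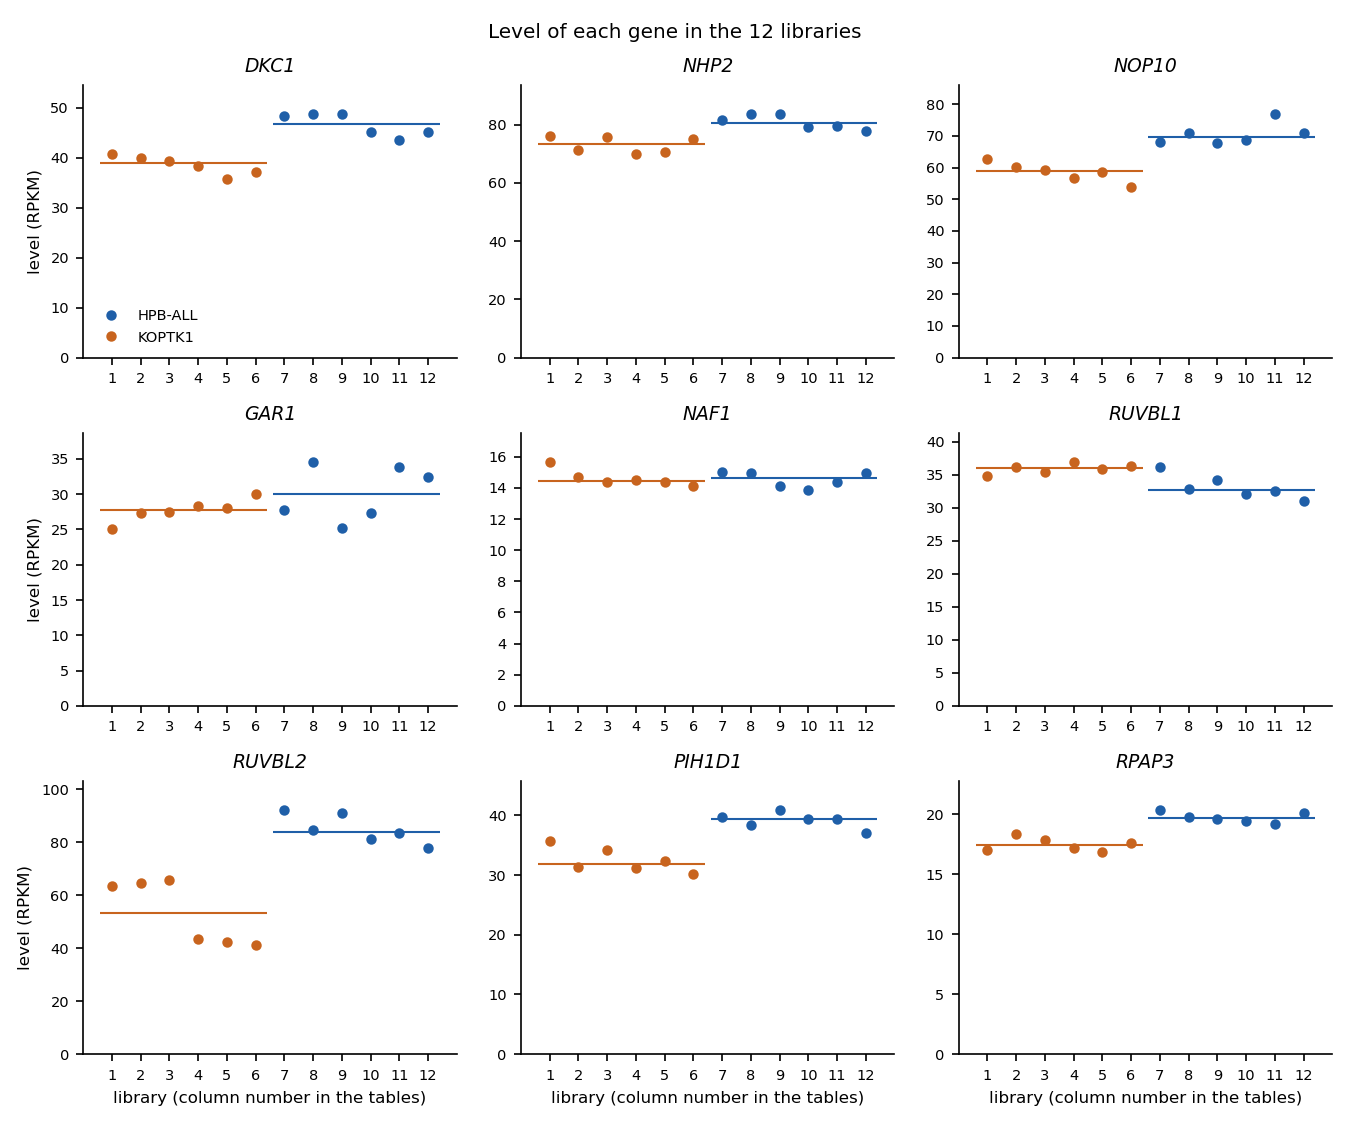
Level in RPKM of each of the 9 genes (vertical axis, from 0) in each library (horizontal axis, by column number), with KOPTK1 in orange, HPB-ALL in blue and a line at the median of each cell line. The HPB-ALL libraries lie above all KOPTK1 libraries in DKC1, NHP2, NOP10, RUVBL2, PIH1D1 and RPAP3, and RUVBL2 falls into separate sets at 63.3 to 65.7 and 41.1 to 43.4 RPKM within KOPTK1.

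DKC1, which makes the pseudouridine synthase, was at 48.3, 48.7, 48.8, 45.1, 43.5 and 45.1 RPKM in HPB-ALL libraries 7 to 12. In KOPTK1 libraries 1 to 6 it was at 40.7, 40.0, 39.4, 38.5, 35.7 and 37.2 RPKM. The lines did not overlap, and libraries 7 to 9 were the highest of the 12. DKC1 was 1.21-fold higher in HPB-ALL (log2 difference 0.27 ± 0.04, SE, n = 6 libraries per line, edgeR adjusted p = 5.6e-05).

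NHP2, an RNA-binding core protein, had the highest level of the core proteins in both lines. It ranged from 77.6 to 83.7 RPKM with a median of 80.5 RPKM in HPB-ALL, and from 69.7 to 76.1 RPKM with a median of 73.2 RPKM in KOPTK1. The ranges lay next to each other without overlap, and the difference was small (log2 0.14 ± 0.03, SE, adjusted p = 0.0021). Of the exon length of NHP2, 43.8% (379 bases) overlaps RMND5B on the opposite strand, whose counts came to 85.0% of those of NHP2 in HPB-ALL and 79.3% in KOPTK1. The sources used here do not say whether counting used strand, so the level of NHP2 is uncertain.

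NOP10, the smallest core protein, was at 68.0, 71.1, 67.8, 68.6, 77.0 and 71.0 RPKM in HPB-ALL libraries 7 to 12. In KOPTK1 libraries 1 to 6 it was at 62.8, 60.3, 59.2, 56.9, 58.6 and 54.0 RPKM. No KOPTK1 library reached the lowest of HPB-ALL, and library 11 stood above the rest of its line. NOP10 was 1.203-fold higher in HPB-ALL (log2 difference 0.27 ± 0.05, SE, adjusted p = 1.8e-04).

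GAR1, the core protein that completes the particle, varied most of the core proteins among libraries. Its level was 27.7, 34.6, 25.1, 27.3, 33.9 and 32.4 RPKM in HPB-ALL libraries 7 to 12 and 25.05, 27.4, 27.5, 28.3, 28.1 and 30.0 RPKM in KOPTK1 libraries 1 to 6. The lines overlapped, and HPB-ALL held both the highest value and the second lowest. The log2 difference of 0.12 ± 0.08 (SE) did not pass the test (adjusted p = 0.18), with a 95% interval from -0.04 to 0.29. Without HPB-ALL library 9, the lowest of its line, the difference was 0.17 and passed (adjusted p = 0.046). It did not pass with any other single library left out, the difference being as low as 0.085 (edgeR, highest adjusted p = 0.35).

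NAF1, which precedes GAR1 on the particle, had the lowest level of the 9 genes in both lines. It was at 13.8 to 15.01 RPKM in HPB-ALL (median 14.6 RPKM) and 14.1 to 15.7 RPKM in KOPTK1 (median 14.5 RPKM). The lines overlapped over most of their ranges, and the 95% interval of the log2 difference ran from -0.09 to 0.07 around -0.01 (SE 0.04, adjusted p = 0.83). This interval leaves out the difference measured for DKC1. The sign of the NAF1 difference changed with the scaling and with the libraries used.

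RUVBL1 and RUVBL2 are the AAA+ ATPases of R2TP and also serve in chromatin-remodelling complexes. RUVBL2 was higher in HPB-ALL, and RUVBL1 was slightly lower, a call that not all alternatives kept. RUVBL2 was at 92.1, 84.4, 90.8, 81.3, 83.5 and 78.0 RPKM in HPB-ALL libraries 7 to 12. In KOPTK1 it was at 63.3, 64.6 and 65.7 RPKM in libraries 1, 2 and 3 and at 43.4, 42.1 and 41.1 RPKM in libraries 4, 5 and 6. Every HPB-ALL library was above every KOPTK1 library, and the KOPTK1 libraries formed separate sets in the same arrangement as CD79A. RUVBL2 was 1.59-fold higher in HPB-ALL (log2 difference 0.67 ± 0.12, SE, adjusted p = 2.8e-04), the largest difference of the 9 genes. It was 1.03 without KOPTK1 libraries 1, 2 and 3 (adjusted p = 3.0e-13) and 0.40 without libraries 4, 5 and 6 (adjusted p = 2.8e-06).

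RUVBL1 was at 36.1, 32.9, 34.2, 32.0, 32.5 and 31.0 RPKM in HPB-ALL libraries 7 to 12, and at 34.8, 36.1, 35.4, 36.9, 35.9 and 36.3 RPKM in KOPTK1 libraries 1 to 6. The lines overlapped through library 7, which was above 4 of the KOPTK1 libraries. RUVBL1 was lower in HPB-ALL (log2 difference -0.12 ± 0.04, SE, adjusted p = 0.011). The call was lost without KOPTK1 libraries 4, 5 and 6 (-0.10, adjusted p = 0.070) and without a filter on low counts (-0.05, adjusted p = 0.28). Exons of RUVBL1 overlap those of EEFSEC by 370 bases (12.7% of its length) and of SEC61A1 by 161 bases (5.5%), both on the opposite strand. SEC61A1 had 301.5% of the counts of RUVBL1 in HPB-ALL and 219.1% in KOPTK1, and EEFSEC 26.8% and 21.4%, so the level of RUVBL1 and its small difference are uncertain too.

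PIH1D1 and RPAP3, which link the ATPases to clients and to HSP90, were both higher in HPB-ALL. PIH1D1 was at 37.0 to 40.9 RPKM in HPB-ALL (median 39.3 RPKM) and at 30.2 to 35.7 RPKM in KOPTK1 (median 31.9 RPKM), with no overlap and a log2 difference of 0.27 ± 0.04 (SE, adjusted p = 1.5e-04). RPAP3 was at 19.2 to 20.3 RPKM in HPB-ALL (median 19.7 RPKM) and at 16.8 to 18.4 RPKM in KOPTK1 (median 17.4 RPKM). Its lines did not overlap either, with a log2 difference of 0.17 ± 0.03 (SE, adjusted p = 1.8e-04). The exons of PIH1D1 share 29 bases (2.2%) with ALDH16A1 on the opposite strand.

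**Figure D2:**
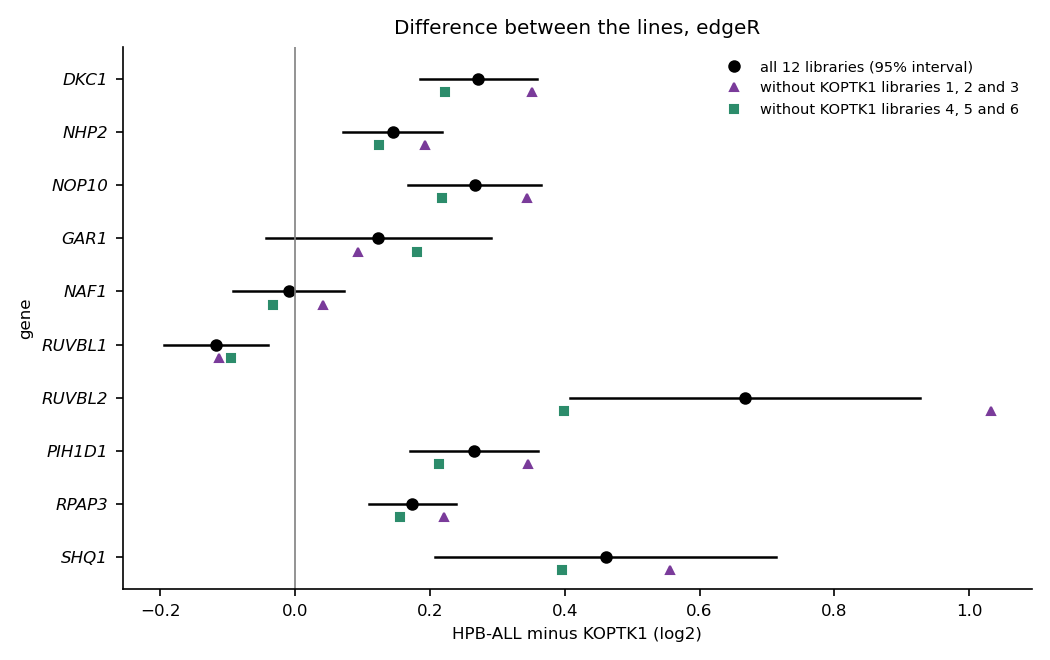
Log2 difference between HPB-ALL and KOPTK1 (horizontal axis, positive where HPB-ALL is higher) for the 9 genes and SHQ1 (vertical axis), from edgeR with 95% intervals (black, 6 libraries per line), with the estimates without KOPTK1 libraries 1, 2 and 3 (triangles) and without libraries 4, 5 and 6 (squares). RUVBL2 lies farthest from 0 and its estimate moves from 0.40 to 1.03 with the KOPTK1 libraries used, and the intervals of GAR1 and NAF1 include 0.

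Of the 9 genes, 6 were higher in HPB-ALL (DKC1, NHP2, NOP10, RUVBL2, PIH1D1 and RPAP3), RUVBL1 was lower, and GAR1 and NAF1 did not pass the test. Such calls were common between these lines: of 27834 genes tested, 63.8% were called, 30.6% higher and 33.2% lower in HPB-ALL. Among the 7625 genes at 10 RPKM or more in both lines, 73.3% were called, 43.8% higher and 29.6% lower. The same 6 genes were the ones whose libraries did not overlap between the lines, against 43.7% of all genes tested. The median difference of the 9 genes was 0.17, and their median size of 0.17 was below the 0.22 of genes at 10 RPKM or more and the 0.35 of all genes tested, whose median difference was -0.03. Without KOPTK1 libraries 1, 2 and 3 the log2 difference was 0.35 for DKC1, 0.19 for NHP2, 0.34 for NOP10, 0.35 for PIH1D1 and 0.22 for RPAP3, and without libraries 4, 5 and 6 it was 0.22, 0.12, 0.22, 0.21 and 0.16, each past the test (highest adjusted p = 0.011). GAR1 (0.09 and 0.18) and NAF1 (0.04 and -0.03) passed in neither case. RUVBL2 alone also differed by at least 1.5-fold, as 29.1% of all genes tested did. In bulk RNA, fewer cells of a kind and less RNA per cell cannot be told apart.

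The order of the levels was nearly the same in both lines. In HPB-ALL it ran RUVBL2, NHP2, NOP10, DKC1, PIH1D1, RUVBL1, GAR1, RPAP3 and NAF1, and neighbours overlapped in their libraries only for RUVBL2 with NHP2 and RUVBL1 with GAR1. In KOPTK1 it ran NHP2, NOP10, RUVBL2, DKC1, RUVBL1, PIH1D1, GAR1, RPAP3 and NAF1, and NOP10 overlapped RUVBL2, DKC1 overlapped RUVBL1, and RUVBL1 overlapped PIH1D1. Medians ran from 84.0 to 14.6 RPKM in HPB-ALL and from 73.2 to 14.5 RPKM in KOPTK1. The order within a line was unchanged in TPM and with library totals in place of the trimmed mean of M values (TMM).

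Ratios of levels within a library do not depend on the scaling between libraries. RUVBL2 over RUVBL1 was 2.51 to 2.65 in the 6 HPB-ALL libraries, 1.79 to 1.86 in KOPTK1 libraries 1 to 3 and 1.13 to 1.18 in libraries 4 to 6. The ATPases were thus within 1.18-fold of each other in 3 KOPTK1 libraries only, and the ratio was 1.76-fold higher in HPB-ALL over all libraries (exact permutation test, two-sided, p = 0.0022, adjusted p = 0.0065 over 9 ratios). The p of 0.0022 is the smallest that 6 against 6 libraries can give, and any ratio without overlap between the lines gets it. The test treats the 6 KOPTK1 libraries as 1 group, though this ratio fell into separate sets there. RUVBL1 over DKC1 (0.856 to 0.902 in libraries 1 to 3, 0.960 to 1.01 in libraries 4 to 6) did not overlap between these sets either. The same held for GAR1 over DKC1 (0.616 to 0.699 and 0.735 to 0.805) and NAF1 over GAR1 (0.522 to 0.625 and 0.472 to 0.514). The other ratios tested overlapped between these sets. No share over other pairs of genes was computed.

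NAF1 over DKC1, the assembly factor against the enzyme, was 0.289 to 0.332 in HPB-ALL and 0.365 to 0.403 in KOPTK1, without overlap (exact permutation p = 0.0022, adjusted p = 0.0065). RUVBL1 over DKC1 was likewise lower in HPB-ALL, at 0.675 to 0.748 against 0.856 to 1.01 (exact permutation adjusted p = 0.0065). These ratios move with the higher DKC1 level of HPB-ALL and are not independent of it. NHP2 over DKC1 was 1.69 to 1.82 in HPB-ALL and 1.78 to 2.02 in KOPTK1, with overlap (exact permutation adjusted p = 0.015).

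NOP10 over DKC1 had medians of 1.49 in HPB-ALL and 1.51 in KOPTK1 (exact permutation adjusted p = 0.94). GAR1 over DKC1 ran from 0.515 to 0.779 in HPB-ALL and from 0.616 to 0.805 in KOPTK1, NAF1 over GAR1 from 0.423 to 0.561 and from 0.472 to 0.625, and neither passed (exact permutation adjusted p = 0.23 for each). SHQ1 over DKC1 was 1.46 to 1.48 in HPB-ALL libraries 7 to 9, 1.05 to 1.08 in libraries 10 to 12 and 1.06 to 1.17 in KOPTK1 (exact permutation adjusted p = 0.23 between lines). PIH1D1 over RPAP3 was 1.84 to 2.09 in HPB-ALL and 1.71 to 2.09 in KOPTK1 (exact permutation adjusted p = 0.20).

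The spread of the 9 genes over the 6 libraries of a line, which hold both shRNAs, differed from gene to gene. In HPB-ALL the highest library exceeded the lowest by 5.96% for RPAP3, 7.83% for NHP2, 8.37% for NAF1, 10.3% for PIH1D1, 12.1% for DKC1 and 13.6% for NOP10. RUVBL1 (16.3%) and RUVBL2 (18.1%) varied more, and GAR1 most (37.4%), above 94.2% of the 8379 genes at 10 RPKM or more, whose median ratio of highest to lowest was 1.11. DKC1, NOP10, RUVBL1 and RUVBL2 also lay above this median, and RPAP3, NHP2, NAF1 and PIH1D1 below it. In KOPTK1, RUVBL1 was the steadiest at 6.08%, a smaller spread than all but 3.98% of 8526 genes at this level, and RUVBL2 the least steady at 59.9%, above 91.3% of them. The other 7 genes lay between 9.09% (NHP2) and 19.7% (GAR1), below the median ratio of 1.204.

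Of the genes compared with DKC1 within each line (7378 at 10 RPKM or more in both), those whose log2 levels followed it most closely over libraries included ENSG00000277597 (mean r of the lines 0.97), ENSG00000279945 (0.95), SUCLG2 (0.94) and NUDT5 (0.94). Among the genes described here, SHQ1 came nearest, at place 173 with r of 0.98 in HPB-ALL and 0.76 in KOPTK1, followed by RUVBL2 at place 683 (0.70 and 0.85). GAR1 had a negative r with DKC1 in both lines (-0.39 in HPB-ALL and -0.68 in KOPTK1). NOP10 had one in HPB-ALL (-0.69) but not in KOPTK1 (0.63), and RUVBL1 in KOPTK1 (-0.45) but not in HPB-ALL (0.67). None of these r values was tested. These values describe 6 libraries per line that share scaling and library. In HPB-ALL the DKC1 levels left a gap between libraries 7 to 9 (48.3 to 48.8 RPKM) and 10 to 12 (43.5 to 45.1 RPKM).

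A list of 35 genes that work with or beside these proteins was all tested, including SHQ1, the telomerase parts TERT and TERC, box C/D proteins, prefoldin-like partners of R2TP, its clients and other pseudouridine synthases. Of the 35, 15 were called higher and 8 lower in HPB-ALL, with a median difference of 0.06. Of all genes tested, 30.6% were called higher and 33.2% lower in HPB-ALL. Of genes at 10 RPKM or more in both lines, 43.8% were called higher and 29.6% lower in HPB-ALL. TERT, the reverse transcriptase that works with the H/ACA RNA TERC, was 2.03-fold higher, at 3.16 to 3.95 RPKM against 2.16 to 2.65 RPKM in KOPTK1 libraries 1 to 3 and 0.920 to 1.07 RPKM in libraries 4 to 6 (log2 difference 1.02 ± 0.24, SE, adjusted p = 0.0022). It was 1.86 without libraries 1, 2 and 3 and 0.54 without libraries 4, 5 and 6. SHQ1 followed (0.46 ± 0.12, SE, adjusted p = 0.0036; 0.56 and 0.40 without these sets) and then SNU13, a box C/D protein related to NHP2 (0.44, adjusted p = 5.4e-05; 0.62 and 0.30). SHQ1 is the target of the shRNA, and its HPB-ALL libraries formed separate sets. Libraries 7 to 9 were at 71.1 to 72.3 RPKM and libraries 10 to 12 at 46.003 to 48.7 RPKM, against 39.5 to 45.9 RPKM in KOPTK1. No fit left out either HPB-ALL set.

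TERC itself, at 40.0 to 50.6 RPKM in HPB-ALL and 38.5 to 53.7 RPKM in KOPTK1, did not pass the test (log2 difference -0.08, 95% interval from -0.25 to 0.09, adjusted p = 0.39). Its sign turned with the KOPTK1 libraries used (-0.17 without libraries 1, 2 and 3, adjusted p = 0.037, and 0.04 without libraries 4, 5 and 6). WRAP53, which brings H/ACA particles to the Cajal body, was higher in HPB-ALL (0.42, adjusted p = 4.2e-04), as was NOLC1, which binds assembled particles (0.24, adjusted p = 7.9e-04). The largest differences in the other direction were in COIL, the scaffold of the Cajal body (-0.52, adjusted p = 2.4e-05), POLR2E, an RNA polymerase subunit (-0.38, adjusted p = 1.3e-05), and TTI1, a partner of TELO2 (-0.32, adjusted p = 5.6e-06). Without KOPTK1 libraries 1, 2 and 3 and without libraries 4, 5 and 6, the difference was 0.64 and 0.26 for WRAP53, 0.39 and 0.14 for NOLC1, -0.64 and -0.37 for COIL, -0.44 and -0.29 for POLR2E, and -0.37 and -0.24 for TTI1, each past the test. The 6 COIL levels of HPB-ALL (9.33 to 10.6 RPKM) lay below those of KOPTK1 (12.8 to 16.5 RPKM).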

How the data were processed

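RNA-Seq counts were taken from 1 table per line. The authors deposited estimated counts per gene, in part fractional (82.8% to 84.9% of values per library were whole), although the tables are named for RPKM. The labels name hg38 with Trimmomatic 0.36, STAR 2.5.4b, Picard 2.18.7, featureCounts 1.6.2 and edgeR 3.22.3, without their roles, and the paper's methods name hg19 and Bowtie 2 for splicing. All 9 genes lay at their GRCh38.p14 positions. The tables also hold the authors' fold changes, F statistics, p-values and FDR values, which were not used. None of the 12 library columns matches a sample's label. They were assigned to a line only, because the sample descriptions name the table of their line, and the planned tests of SHQ1 shRNA against control were not run.

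Counts of both tables were rounded to whole numbers, filtered with filterByExpr, scaled by TMM (factors 0.987 to 1.01) and tested between lines with the quasi-likelihood test of edgeR 4.0.16 in R 4.3.3, adjusted by Benjamini-Hochberg over all genes tested (threshold 0.05). RPKM used the deposited counts before rounding, TMM-scaled totals and the exon length of the tables. Other steps used Python 3.11.15 with pandas 2.3.3 and numpy 2.4.6. Symbols were found for 95.9% of identifiers. On simulated data for 27477 genes of this comparison, genes given a log2 change of 1 were recovered in 79.0% of cases and those given 0.5 in 33.0%, and 3.45% of calls were false. The simulation changed 100 genes by each size and drew the libraries independently. In the data 63.8% of genes were called and the KOPTK1 libraries formed 2 sets, so these shares do not carry over to it. Fractional counts and reads shared with NHP2P1, RUVBL2P1 or overlapping genes could shift a level: NHP2P1 held 1.02% of the counts of NHP2, and RUVBL2P1 held 0.023% of those of RUVBL2.

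The genes and lists were chosen with earlier results of these data known. Named genes were the 9 genes, SHQ1, TERC, TERT, WRAP53 and NOLC1, the 3 largest called differences in each direction from a related list, and the 5 genes most correlated with DKC1, and 2 genes that these rules or the marker lists name are not reported here. That list had 36 symbols, of which WDR92 is an older name of DNAAF10. Promoter motifs, sought on both strands after the data were seen, were the E-box CACGTG, the GC box GGGCGG, the NRF1-type CGCATGCG, the TATA box TATAAA, the YY1-type GCCATNTT, the ETS core GGAAGT, its longer form CCGGAAGT and the extended YY1 motif (which overlaps GCCATNTT on the other strand). They occurred in 6.34%, 42.6%, 1.73%, 10.7%, 3.86%, 19.5%, 3.42% and 0.25% of all promoters and in 1, 6, 1, 1, 1, 6, 2 and 0 of the 10 windows of these genes. Alternatives were factors by relative log expression (RLE), the method of DESeq2 size factors, with the edgeR test, and the DESeq2 1.42.0 Wald test. Further ones were library totals, no filter on low counts, TPM and leaving out each library. Leaving out KOPTK1 libraries 1 to 3 or 4 to 6 and a 1.5-fold minimum were added after the data were seen.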

Additional observations from a re-analysis of the deposited data

Results flagged for a closer look

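In HPB-ALL library 11, NOP10 stood at 77.0 RPKM, apart from the other 5 libraries of the line at 67.8 to 71.1 RPKM. In KOPTK1 library 1, NAF1 stood at 15.7 RPKM, apart from the others at 14.1 to 14.7 RPKM. In each case the gap to the nearest library was larger than Dixon's 95% critical value for 6 samples (0.625), at 0.644 and 0.654 of the whole range. These were 2 of 20 sets of libraries examined (9 genes and SHQ1 in 2 lines), and chance flags about 1 in 20. Whether a property of these libraries moved with the values was not tested.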

How the results depend on the processing

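No paired analysis was possible because the library columns carry no replicate number. Of the differences between the lines of the 9 genes, SHQ1 and 8 named related genes, 312 values under the alternatives led to the same call in the same direction, 8 changed sign, 2 newly passed the test and 2 no longer passed. NAF1, at -0.01, turned to 0.0094 with RLE factors and 0.0082 with the DESeq2 Wald test. It was 0.053 without a filter on low counts and 0.042 without KOPTK1 libraries 1, 2 and 3. It ran from -0.015 to 0.011 with single libraries left out. TERC, at -0.08, turned to 0.044 without KOPTK1 libraries 4, 5 and 6. No gene of the 9 was called lower in HPB-ALL without a filter, by edgeR, or without KOPTK1 libraries 4, 5 and 6 (0 in each case, RUVBL1 having an adjusted p of 0.28 and 0.070). At an unadjusted p under 0.05 these counts were 0 and 1, and the DESeq2 Wald test over all libraries called 1 lower. With a minimum of 1.5-fold, 8096 genes were called, of the 9 genes 1 higher and 0 lower in HPB-ALL. With single libraries left out, 16878 to 18345 genes were called, and 6 to 7 of the 9 genes higher and 1 lower. In TPM, another unit, all 20 median levels took other values by construction, and the order of the 9 genes in each line was kept. Without a filter the differences of all 9 genes moved upward, as from 0.27 to 0.33 for DKC1 and from 0.67 to 0.73 for RUVBL2. The cause of this and of the other changes was not tested. Without the shRNA of each library any effect of SHQ1 loss on the 9 genes cannot be told apart from the spread between libraries.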
